A study of Mus musculus with 4 samples.

Results

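The genes described here are 10 that neurons use to build and arrange their cytoskeleton or that mark the step from neural progenitor to neuron: Tubb3, Mapt, Dcx, Nefl, Nefm, Stmn2, Stmn3, Gap43, Elavl3 and Elavl4. They were chosen by name, with earlier results of these data known, so their counts beside the shares of all genes are a description. Every gene probe on the arrays that carries one of these symbols or, for Nefm, its older name Nef3, was taken. This gave 19 probes of 41174, of which 15 were bright enough to test (well above background on both arrays of a stage in the null or the wild-type channel). The test covered 24994 probes for 17161 genes or transcripts. The other 4 probes, 1 each of Nefm, Stmn2, Dcx and Elavl3, were well above background in none of the 8 channels and were not tested. The brightest probe stands for its gene, and those 10 probes were well above background in every channel. Nxn-null embryos (Nxn-/-, written NRX-/- in the labels) are labelled as null for the gene of nucleoredoxin, a thioredoxin-related protein. Wild-type embryos (Nxn+/+) carried the gene intact. The array descriptions call the null channel KD and the wild-type channel NRX. The protein was not measured here. Both genotypes were on the C57BL/6J background and untreated, and were taken at the embryonic days E11.5 and E9.5. On each of 4 Agilent whole-genome arrays, labelled RNA of Nxn-null embryos in 1 dye was hybridised together with RNA of wild-type embryos of the same stage in the other. At each stage, array 1 carried the null RNA in Cy5 and array 2 carried it in Cy3. How the null allele was made and how many embryos lie behind an RNA are not given in the sources used here. Both arrays of a stage may hold the same RNA extracts, so p-values cover only the spread between these arrays, which may be technical.

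Neurons extend axons and dendrites on bundles of microtubules, which are polymers of tubulin, and on neurofilaments, which set the calibre of axons. Microtubule-associated proteins stabilise the bundles, stathmins bind free tubulin and promote disassembly, and RNA-binding proteins of the Hu family steady and splice the messages of newly born neurons. In the mouse embryo the primary neurons of the hindbrain, spinal cord, midbrain and cranial ganglia differentiate at about the earlier of these stages, and many more are added by the later one. These genes are widely used to recognise neurons.

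The RNA labelled null carried less Nxn on all 4 arrays, with log2 ratios of null over wild type of -1.24 and -1.42 at E11.5 and -1.04 and -0.93 at E9.5 for its brighter probe. That probe stayed well above background in every null channel. It had 4958 and 4282 in the null and 11720 and 11430 in the wild-type channels at E11.5. At E9.5 it had 5552 and 5253 in the null and 11450 and 10020 in the wild-type channels. Across genes, the ratios of the dye-swapped arrays correlated at 0.26 at E11.5 and 0.48 at E9.5, which describes these arrays. Each array had 43379 spots. Between 51.4% and 69.6% of null channels' gene probes and between 48.1% and 70.3% of wild-type channels' were well above background. At E11.5 the female transcript Xist was at least 57.0-fold higher in the null RNA, and the Y-linked Ddx3y and Eif2s3y were at least 5.79-fold and 8.69-fold lower. Sex and genotype therefore cannot be told apart there. In wild-type RNA the brightest Xist probe had 7247 and 9785 at E9.5, against 148 and 172.5 at E11.5. The tested Ddx3y probe had 98.5 and 92.1 at E9.5, against 858 and 1027 at E11.5. Sex therefore cannot be told apart from stage in wild-type RNA, nor from genotype in the stage difference of the ratio.

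The 10 genes were measured in null over wild type at each stage. At E11.5 none was higher in null embryos and 1, Mapt, was lower, while at E9.5 9 of 10 were higher and none was lower. Their median log2 ratio was 0.03 at E11.5, with a range from -0.40 to 0.16, and 0.39 at E9.5, with a range from 0.05 to 0.57. Over all genes the median was 0.01 at E11.5 and -0.0008 at E9.5. The background was 3.4% of genes called higher and 5.2% called lower at E11.5, and 9.03% higher and 14.1% lower at E9.5 (limma, adjusted p under 0.05 over all tested probes). By probe, 0 of 15 were higher and 3 lower at E11.5 (background 3.16% higher and 5.31% lower), and 13 of 15 were higher and 0 lower at E9.5 (background 8.8% higher and 13.5% lower). The ratios of all 10 genes were above 0 on both E9.5 arrays, as were those of 25.1% of all genes. Leaving out an array removes the dye term from the fit, and the array left at that stage is assumed to vary like those of the other. Then 0 of the 10 were called lower at E11.5 whichever array was left out, and at E9.5 1 was called higher without E9.5 array 1 (Stmn3) and 0 without E9.5 array 2, E11.5 array 1 or E11.5 array 2. On all 4 arrays, the counts were 0 lower at E11.5 and 3 higher at E9.5 with no dye term, 0 and 4 under median centring in place of loess, and 0 and 2 with the scanner software's own log ratio. Over all 17161 genes these settings called 26, 102 and 25 lower at E11.5 and 58, 156 and 258 higher at E9.5, fewer than the 892 and 1550 behind the shares above.

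**Figure D1:**
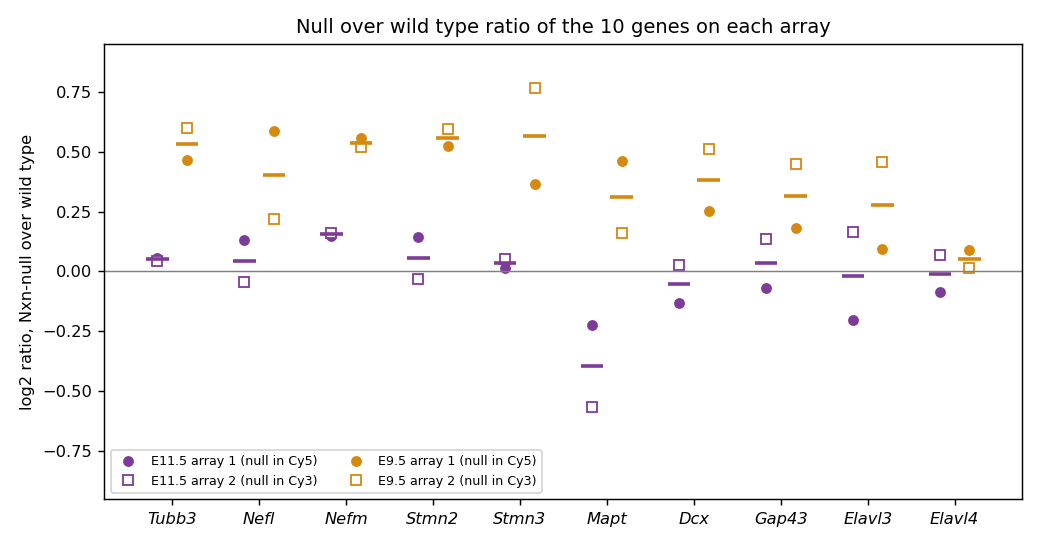
Log2 ratio of Nxn-null over wild type (y axis) for the brightest probe of each of the 10 genes (x axis) on the 2 arrays of E11.5 (purple) and of E9.5 (orange). Filled circles are array 1 (null in Cy5), open squares are array 2 (null in Cy3) and bars are their means. At E9.5 all 20 points lie above 0, and at E11.5 Mapt has the lowest points, at -0.22 and -0.57.

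Promoters are shown for 3 genes that were higher at E9.5 (Tubb3, Stmn3 and Elavl3) and for Elavl4, whose brightest probe did not pass there. RefSeq (GRCm38.p6) windows from 250 bases before to 50 after an annotated start were at hand for 5 of the 10 genes, Tubb3, Stmn3, Elavl3, Elavl4 and Dcx, and 4 are given as letters. Nefl, Nefm, Mapt, Gap43 and Stmn2 are named only. Capitals mark E-boxes of the forms CAGCTG and CAGATG (or its reverse complement CATCTG), the kind of site that proneural helix-loop-helix factors bind. They were searched on both strands, and none of the marked sites overlaps another. The Tubb3 window is chr8:123411303-123411602 on the plus strand. On the minus strand lie those of Stmn3 (chr2:181314451-181314750), Elavl3 (chr9:22051974-22052273) and, from 1 of its annotated starts, Elavl4 (chr4:110287478-110287777).
Tubb3: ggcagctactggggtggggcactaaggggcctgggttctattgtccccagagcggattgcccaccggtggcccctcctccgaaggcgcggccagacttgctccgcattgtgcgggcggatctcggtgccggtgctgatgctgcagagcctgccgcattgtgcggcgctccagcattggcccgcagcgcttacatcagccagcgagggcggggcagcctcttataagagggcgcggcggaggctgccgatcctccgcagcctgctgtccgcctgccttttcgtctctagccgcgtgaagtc
Stmn3: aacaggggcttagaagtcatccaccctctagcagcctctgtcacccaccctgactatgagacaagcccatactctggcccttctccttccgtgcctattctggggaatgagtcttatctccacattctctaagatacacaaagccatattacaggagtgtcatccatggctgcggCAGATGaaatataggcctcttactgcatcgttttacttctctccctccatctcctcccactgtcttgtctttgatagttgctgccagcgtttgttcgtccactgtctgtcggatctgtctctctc
Elavl3: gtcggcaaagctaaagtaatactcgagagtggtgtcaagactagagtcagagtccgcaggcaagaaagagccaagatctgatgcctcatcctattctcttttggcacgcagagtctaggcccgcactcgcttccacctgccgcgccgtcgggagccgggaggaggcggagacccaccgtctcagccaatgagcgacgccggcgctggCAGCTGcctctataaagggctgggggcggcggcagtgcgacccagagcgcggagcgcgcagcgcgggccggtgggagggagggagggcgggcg
Elavl4: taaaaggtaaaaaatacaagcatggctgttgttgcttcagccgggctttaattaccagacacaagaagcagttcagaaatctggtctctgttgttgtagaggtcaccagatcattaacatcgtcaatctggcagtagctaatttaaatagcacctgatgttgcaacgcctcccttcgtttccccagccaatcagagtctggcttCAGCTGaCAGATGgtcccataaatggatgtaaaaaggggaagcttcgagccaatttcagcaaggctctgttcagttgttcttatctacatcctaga
An E-box of either form was in 5 of the 9 windows of these 5 genes, some of which overlap, and in 30.6% of 32851 RefSeq promoter windows. CAGCTG alone was in 16.3% of windows, and CAGATG or CATCTG in 17.2%. In Stmn3 the CAGATG began 75 bases before the start (position -75). In the Elavl4 window shown, the CAGCTG (-46) and the CAGATG (-39) lay side by side, and they recur in 1 window that overlaps it. Of the other Elavl4 windows, the one starting at 110286785 holds a CATCTG and the one starting at 110351862 holds no E-box of these forms. In Elavl3 the CAGCTG (-43) stood just before a TATAAA (-33), the core of a TATA box, which 13.6% of windows hold on either strand. The Tubb3 and Dcx windows held no E-box of these forms, which says only that these letters are not in those windows. Such matches describe the sequence and are not shown to be bound.

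Among the microtubule genes, Tubb3 encodes the class III beta-tubulin of neurons. Its normalised intensity at E11.5 was 14860 and 15150 in the null channels and 14310 and 14680 in the wild-type channels. At E9.5 it was 7787 and 7876 in the null channels, against 5645 and 5194 in the wild-type channels. The null channels were the higher on all arrays, by little at E11.5 and by 1.45-fold at E9.5. Its log2 ratio was 0.05 ± 0.01 at E11.5 (SD, n = 2 arrays; limma adjusted p = 0.753) and 0.53 ± 0.10 at E9.5 (SD, n = 2 arrays; limma adjusted p = 3.28e-06).

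Mapt encodes tau, which binds and stabilises axonal microtubules. At E11.5 its brightest probe had 5093 and 4657 in the null channels and 5952 and 6893 in the wild-type channels. At E9.5 it had 1196 and 1079 in the null channels, against 869 and 966 in the wild-type channels. The genotypes therefore did not overlap at either stage, with the null RNA lower at the later and higher at the earlier. That gave a log2 ratio of -0.40 ± 0.24 at E11.5 (SD, n = 2 arrays; limma adjusted p = 0.000227) and 0.31 ± 0.21 at E9.5 (SD, n = 2 arrays; limma adjusted p = 0.00114). All 3 Mapt probes were called in both directions, with log2 ratios from -0.40 to -0.24 at E11.5 and from 0.25 to 0.34 at E9.5. Of the 10 genes, Mapt alone was called at E11.5. Mapt lies on chromosome 11, as does Nxn.

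Dcx encodes doublecortin, a microtubule-binding protein of migrating young neurons. At E11.5 its intensities were 6690 and 7118 in the null channels and 7331 and 6990 in the wild-type channels, which overlap. At E9.5 they were 2009 and 2307 in the null channels, against 1687 and 1619 in the wild-type channels, with no overlap. Over the arrays of a stage the log2 ratio averaged -0.05 ± 0.11 at E11.5 (SD, n = 2 arrays; limma adjusted p = 0.733) and 0.38 ± 0.18 at E9.5 (SD, n = 2 arrays; limma adjusted p = 0.000156). A dim second Dcx probe, at 180 and 195 in the null channels and 178 and 158 in the wild-type channels at E9.5, had a log2 ratio of 0.16 that did not pass (limma adjusted p = 0.118). Dcx is X-linked, and the brightest Xist probe had a log2 ratio of -0.43 at E9.5. That Xist probe had 6565 and 5960 in the null channels and 7247 and 9785 in the wild-type channels at E9.5. The tested Ddx3y probe had 102 and 99.35 in the null channels and 98.5 and 92.1 in the wild-type channels there. The part of sex in the Dcx values was not tested.

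The neurofilament genes encode the light (Nefl) and medium (Nefm) subunits, and lie on chromosome 14. Nefl had 19240 and 16940 in the null channels and 17580 and 17460 in the wild-type channels at E11.5, with the null values on either side of the wild-type ones. By contrast, the E9.5 values were 10780 and 9911 in the null channels, against 7172 and 8523 in the wild-type channels. The E9.5 log2 ratio was 0.40 ± 0.26 (SD, n = 2 arrays; limma adjusted p = 0.000111), and a second Nefl probe gave 0.34 ± 0.16 (limma adjusted p = 0.0005). At E11.5 the ratios of these probes were 0.04 and 0.06, and neither passed.

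Nefm had 6738 and 6653 in the null channels and 6076 and 5946 in the wild-type channels at E11.5. Its E9.5 values were 4751 and 4164 in the null channels, against 3233 and 2901 in the wild-type channels. Here the null channels were higher on every array, and Nefm was the gene of the 10 with the highest E11.5 ratio. The ratio averaged, on the log2 scale, 0.16 ± 0.01 at E11.5 (SD, n = 2 arrays; limma adjusted p = 0.165) and 0.54 ± 0.02 at E9.5 (SD, n = 2 arrays; limma adjusted p = 2.33e-06).

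Tubb3 and Nefm each have 10 spots of the same probe on every array, which shows how well a ratio repeats within an array. The Tubb3 spots averaged 0.05 and 0.05 on the E11.5 arrays and 0.46 and 0.60 on the E9.5 arrays, with ranges of 0.43 to 0.52 and 0.56 to 0.64 at E9.5. The Nefm spots averaged 0.15 and 0.16 on the E11.5 arrays and 0.56 and 0.52 on the E9.5 arrays. The SD among spots of an array was 0.01 to 0.04. For Tubb3 the E9.5 arrays differed by more than their spots did, and for Nefm they did not. The error behind the tests is the spread between arrays left after the dye term, moderated over all probes, and not that between spots. Spots of a probe are repeats of the same labelled RNA and were averaged.

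**Figure D2:**
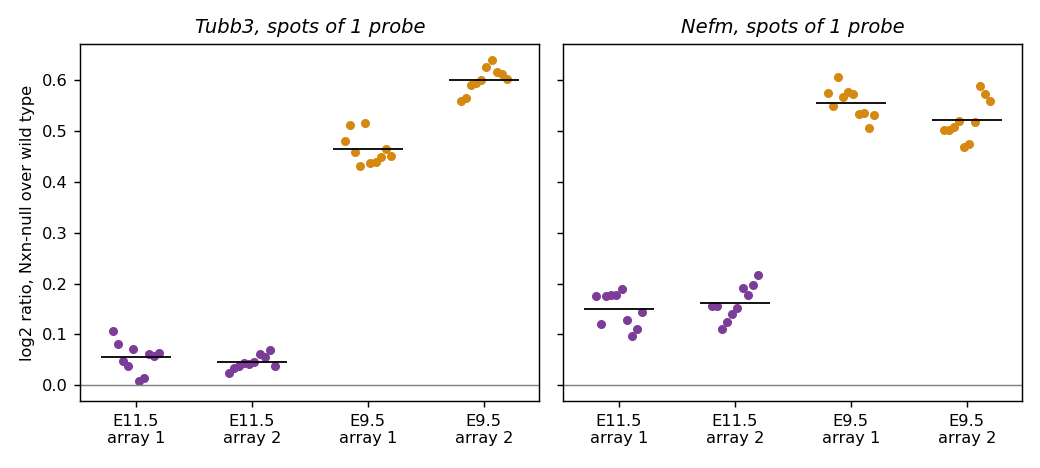
Log2 ratio of Nxn-null over wild type (y axis) of each of the 10 spots of the Tubb3 probe (left) and the Nefm probe (right) on each array (x axis), with E11.5 in purple, E9.5 in orange and a line at each mean. No E9.5 spot of either gene reaches down to the E11.5 spots, whose highest values are 0.11 for Tubb3 and 0.22 for Nefm.

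The stathmins Stmn2 (SCG10) and Stmn3 (SCLIP) are tubulin-binding proteins of growing axons. Stmn2 had 4035 and 3702 in the null channels and 3657 and 3786 in the wild-type channels at E11.5, which overlap. The E9.5 arrays gave 1710 and 1788 in the null channels, against 1188 and 1185 in the wild-type channels, which do not. As a log2 ratio this was 0.05 ± 0.12 at E11.5 (SD, n = 2 arrays; limma adjusted p = 0.735) and 0.56 ± 0.05 at E9.5 (SD, n = 2 arrays; limma adjusted p = 2.53e-06).

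Stmn3 had 10690 and 10360 in the null channels and 10580 and 9990 in the wild-type channels at E11.5. For E9.5 the values were 3050 and 3584 in the null channels, against 2365 and 2109 in the wild-type channels. The genotypes overlapped at E11.5 and not at E9.5, where Stmn3 had the largest mean ratio of the 10, although its arrays lay far apart at 0.37 and 0.77. In log2 terms the ratio was 0.03 ± 0.03 at E11.5 (SD, n = 2 arrays; limma adjusted p = 0.858) and 0.57 ± 0.28 at E9.5 (SD, n = 2 arrays; limma adjusted p = 4.15e-06).

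Gap43 encodes the growth-associated protein of axon tips. It had 634 and 712 in the null channels and 665 and 648 in the wild-type channels at E11.5, which overlap. At E9.5 they were 524 and 546 in the null channels, against 461 and 399.6 in the wild-type channels, which do not. Its mean log2 ratio was 0.03 ± 0.14 at E11.5 (SD, n = 2 arrays; limma adjusted p = 0.838) and 0.32 ± 0.19 at E9.5 (SD, n = 2 arrays; limma adjusted p = 0.000973).

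Elavl3 and Elavl4 encode HuC and HuD, RNA-binding proteins that appear as neurons leave the cell cycle. Elavl3 had 4251 and 5283 in the null channels and 4897 and 4719 in the wild-type channels at E11.5. The values at E9.5 were 2262 and 2370 in the null channels, against 2120 and 1725 in the wild-type channels. The E11.5 channels overlapped, and at E9.5 the null channels were the higher. The mean log2 ratio was -0.02 ± 0.26 at E11.5 (SD, n = 2 arrays; limma adjusted p = 0.909) and 0.28 ± 0.26 at E9.5 (SD, n = 2 arrays; limma adjusted p = 0.00322).

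Elavl4 was the gene that did not pass at E9.5. Its brightest probe had 11520 and 12300 in the null channels and 12230 and 11730 in the wild-type channels at E11.5, and 8072 and 8383 in the null channels and 7584 and 8296 in the wild-type channels at E9.5. The genotypes overlapped at both stages. The log2 ratio was -0.01 ± 0.11 at E11.5 (SD, n = 2 arrays; limma adjusted p = 0.965) and 0.05 ± 0.05 at E9.5 (SD, n = 2 arrays; limma adjusted p = 0.62). The Elavl4 probes disagreed at E9.5, since the dimmer had 932 and 986 in the null channels, against 852 and 757 in the wild-type channels, and was higher (log2 ratio 0.26, limma adjusted p = 0.00611).

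**Figure D3:**
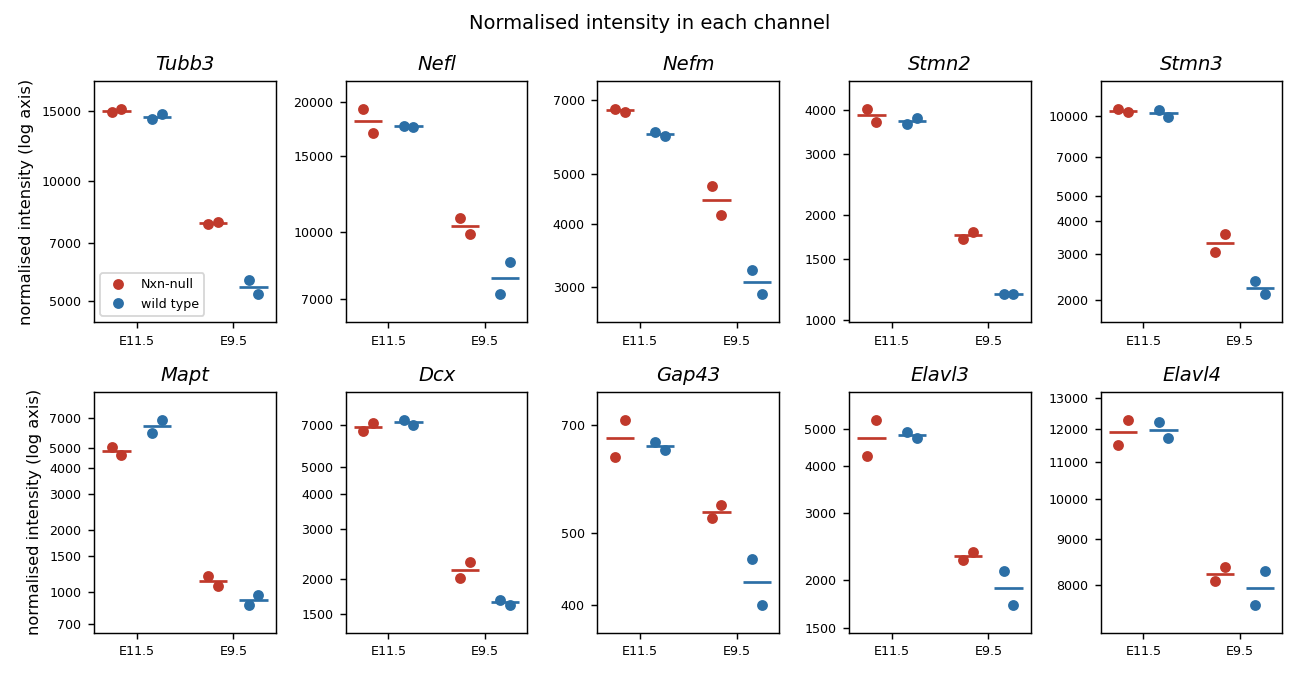
Normalised intensity (log y axis, scaled for each gene) of the brightest probe of each of the 10 genes at E11.5 and E9.5 (x axis), in the Nxn-null channels (red) and the wild-type channels (blue). Each dot is 1 array and each bar the geometric mean of 2 arrays. All genes are higher at E11.5, and at E9.5 the null dots lie above the wild-type dots for every gene but Elavl4. The share of all genes whose dots separate in this way was not counted.

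The SDs above show the dye-swapped arrays as they are. Overlap of the channels is given to describe each gene, and its share over all genes was not counted. The limma SE of each ratio, 0.06 to 0.07, is smaller for several genes because the fit takes the part of the array difference that both stages share as a dye effect and moderates the rest over all probes.

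Whether the genotype difference itself changed with stage was tested as the log2 ratio at E11.5 minus that at E9.5. Sex cannot be told apart from genotype at E11.5, so it cannot be in this difference either. For 9 of 10 genes the difference was negative and passed by the brightest probe, and for none was it positive and called. The background was 4.67% of genes called negative and 7.87% called positive. By probe, 11 of 15 were called negative and 0 positive, and the share over all probes was not counted. The second Nefl probe had -0.28 (limma adjusted p = 0.0528) and the dim second Dcx probe -0.02 (limma adjusted p = 0.945). The median difference was -0.41, and over all genes it was 0.01. The size was greatest for Mapt (-0.71, SE 0.09, limma adjusted p = 1.1e-05), the gene called lower at E11.5 and higher at E9.5. Stmn3 had -0.53 and Stmn2 had -0.50, whereas Elavl4 had -0.06 (limma adjusted p = 0.75). Without E9.5 array 1, E9.5 array 2, E11.5 array 1 or E11.5 array 2 no gene of the 10 was called in this test, and the median difference lay between -0.51 and -0.37. With all arrays, 6 were called with offset 10 or with no filter on dim probes (Nefl, Gap43 and Elavl3 did not pass), 5 under trend and robust moderation, and 0 under median centring or with the scanner software's own log ratio.

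**Figure D4:**
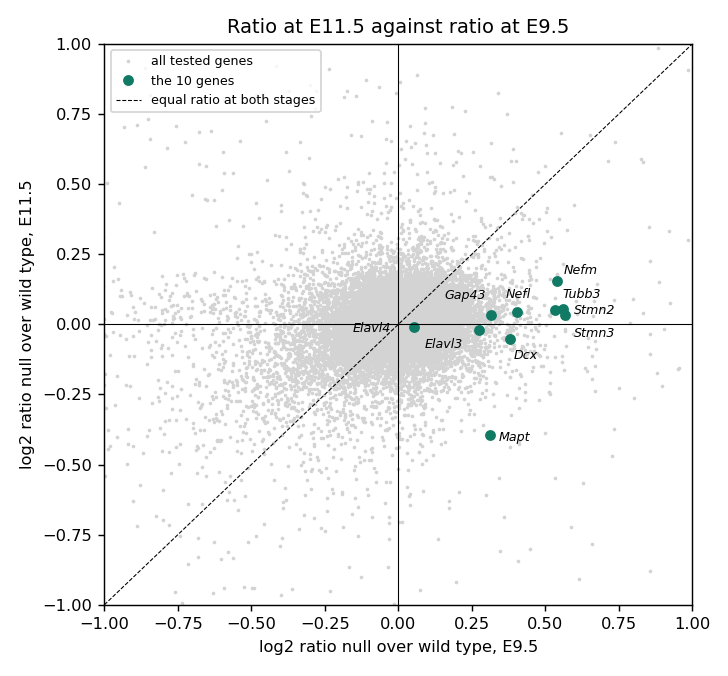
Log2 ratio of Nxn-null over wild type at E11.5 (y axis) against that at E9.5 (x axis), for all 17161 tested genes (grey) and the 10 genes (green), with the dashed line where both are equal. The axes leave out 173 genes beyond -1 or 1. Of the 10, 9 lie at or to the right of 0.28 on the x axis, all 10 lie under the dashed line, and Mapt is the lowest at -0.40 on the y axis.

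A genotype effect shared by the stages was tested on the 2 stage averages and gave 0 calls among the 10 genes and 0% of all genes (limma). The lowest adjusted p among the 10 was 0.629, that of Nefm, at a mean log2 ratio of 0.35. Nefm was also the 1 gene of the 10 with an unadjusted limma p under 0.05, against 7.56% of all genes.

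From E9.5 to E11.5 all 10 genes rose in both genotypes. In wild-type RNA stage and sex cannot be told apart, as the sex-linked genes above show. In null RNA 10 of 10 were higher at E11.5, where 26.5% of genes were called higher and 24.9% lower, and in wild-type RNA 10 of 10 were higher, where 25.6% were called higher and 29% lower. The median change was a log2 of 0.99 in null RNA and 1.38 in wild-type RNA, against -0.01 and -0.03 over all genes. Mapt rose most, 4.29-fold in null RNA and 6.99-fold in wild-type RNA (log2 2.10 and 2.81, limma adjusted p = 3.54e-05 and 1.09e-10). Stmn3 and Dcx came next, at log2 changes of 1.67 and 1.68 in null RNA and 2.20 and 2.12 in wild-type RNA. Tubb3 rose 1.92-fold in null RNA and 2.68-fold in wild-type RNA. The smallest rises were those of Gap43 in null RNA (log2 0.33, limma adjusted p = 0.00911) and Elavl4 in wild-type RNA (log2 0.59, limma adjusted p = 9.87e-05). These changes and the ratios above come from the same channels, so the smaller rise in null RNA is the stage difference of the ratio seen from its other side. The size also depends on how channels are scaled, since scaling each to its 75th percentile gave medians of 0.90 in null RNA and 1.26 in wild-type RNA, moved the median of all genes to 0.19 and 0.20, and left 0 of the 10 called in wild-type RNA, where 0 of all 17161 genes were called.

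Lists of other neuronal and related genes, chosen with earlier results of these data known, gave the setting. They also hold genes that are not particular to neurons, such as Nes, Vim and Ptbp1. Over 6 lists, 85 of 91 genes were tested. At E11.5 2 were higher and 7 lower, and at E9.5 37 were higher (43.5%) and 2 lower, beside the backgrounds given above. All list counts come from the main fit. They were not repeated under the alternatives, several of which called far fewer of all genes. For some list genes, such as Map6 below, the E9.5 arrays differed in sign. The stage difference of the ratio was negative and called for 23 and positive for 1. From E9.5 to E11.5, 63 rose and 4 fell in null RNA, and 69 rose and 5 fell in wild-type RNA. The 10 genes are not in these lists. For each list below the same shares of all genes apply. They were 3.4% higher and 5.2% lower at E11.5, and 9.03% higher and 14.1% lower at E9.5.

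Among 18 other tubulins, microtubule-associated proteins and kinesins, 0 were higher and 2 lower at E11.5 and 8 were higher and 0 lower at E9.5. The 2 that were lower in null RNA at E11.5 were the neuronal beta-tubulins Tubb2b (log2 -0.41, limma adjusted p = 0.00474) and Tubb2a (log2 -0.32, limma adjusted p = 0.00201). They are close paralogs, so their probes may share signal. At E9.5 Map6, which protects microtubules from cold, had a log2 ratio of 0.31, Tubb4a had 0.30 and Map2, the dendritic microtubule-associated protein, had 0.27. The E9.5 arrays of Map6 differed in sign, at 0.66 on array 1 and -0.03 on array 2. Of 5 other intermediate filament genes, none was called at E11.5 and 2 were higher at E9.5: Ina, the internexin that assembles with neurofilaments (0.40), and Nes, the nestin of neural progenitors (0.27).

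Among 13 other stathmins and growth cone proteins, none was called at E11.5, and 7 were higher and 1 lower at E9.5. In null RNA at E9.5 the growth cone protein Basp1 was higher by a log2 of 0.39 and Dpysl3, a collapsin response mediator, by 0.30. Cap2, a cyclase-associated protein that cardiac muscle also uses, was lower by 0.51. Of 14 other RNA-binding and splicing proteins 12 were tested, with 2 lower at E11.5 and 4 higher at E9.5. The splicing factors Celf3 (-0.60, limma adjusted p = 1.81e-06) and Celf4 (-0.26) were lower at E11.5. Rbfox1 (0.31), Rbfox3 (0.27), which encodes the neuronal marker NeuN, and Ptbp1 (0.24), a splicing repressor of non-neuronal cells, were higher at E9.5.

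Of 21 synaptic and secretory genes 19 were tested, with 1 lower at E11.5, and 9 higher and 1 lower at E9.5. The vesicle GTPase gene Rab3a was lower at E11.5 (-0.34). At E9.5 Gng3, a neuronal G protein subunit, had 0.39, the synaptotagmin gene Syt1 had 0.29 and the reticulon gene Rtn1 had 0.28. Of 20 neuronal transcription factors 18 were tested, with 2 higher and 2 lower at E11.5 and 7 higher and none lower at E9.5. Pou4f1, a factor of sensory neurons, was higher at E11.5 (0.28) and Neurod2 lower (-0.24), and Lhx1, a factor of spinal interneurons, was higher at E11.5 (0.24) and at E9.5 (0.31). Insm1, a zinc finger factor of newborn neurons, was higher at E9.5 (0.35).

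Genes of the cells from which neurons arise gave smaller counts. Whether these differ from the 9.03% higher and 14.1% lower of all genes at E9.5 was not tested. Of 13 neural progenitor genes 0 were called at E11.5, and 2 were higher and 1 lower at E9.5. The radial glial lipid-binding protein gene Fabp7 was higher at E9.5 (0.38) and Olig2, a ventral progenitor factor, was lower (-0.19). The summed intensity of this list was 77900 to 80400 in the null channels and 83100 to 85600 in the wild-type channels at E11.5, and 69100 to 71100 in the null and 60300 to 66200 in the wild-type channels at E9.5. Of 8 tested neural crest and Schwann cell genes (9 listed) none was called at E11.5 and 1, the pigment cell enzyme Dct, was higher at E9.5 (0.48). Its summed intensity was 7540 to 8010 in the null and 7720 to 8000 in the wild-type channels at E11.5, and 6940 to 7280 in the null and 6500 to 6720 in the wild-type channels at E9.5.

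Most markers of 4 other tissues were lower in null RNA at E9.5. Of 11 yolk sac genes, all 11 were lower in null RNA at E9.5 (median log2 -3.16), with a summed intensity of 14800 to 18400 in the null channels, against 164000 in each wild-type channel. Cubn, the cubilin receptor of visceral endoderm, had -4.25. All 9 heart muscle genes were lower (median -1.58), with sums of 33200 to 38700 in the null channels and 120000 to 121000 in the wild-type channels, and the ventricular myosin gene Myl2 had -3.43. All 8 primitive red cell genes were lower (median -0.64), with sums of 221000 to 258000 in the null channels and 397000 to 455000 in the wild-type channels. Of 8 tested posterior mesoderm genes (9 listed) 7 were lower (median -1.30), with sums of 2570 to 2890 in the null channels and 6670 to 7520 in the wild-type channels, and 1 gene of that list was not well above background in the null channels. The tail bud factor Cdx2 had -2.27. No marker list was at 0 in either genotype. In whole embryos, fewer cells of a type and less RNA per cell cannot be told apart. The part of these tissues in the higher E9.5 ratios of the 10 neuronal genes was not tested.

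At E11.5 the same lists differed less, apart from the red cells. Of the yolk sac genes 3 were lower, with sums of 76700 to 77600 in the null channels and 76900 to 84700 in the wild-type channels, and 1 gene was below that limit in both genotypes. Of the heart genes 2 were higher, with sums of 91800 to 93100 in the null channels and 87500 to 89500 in the wild-type channels. None of the posterior mesoderm genes was called, with sums of 6570 to 6830 in the null channels and 6500 to 6650 in the wild-type channels. All 8 primitive red cell genes were lower again (median -0.93), with sums of 244000 to 330000 in the null channels and 653000 to 709000 in the wild-type channels.

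**Figure D5:**
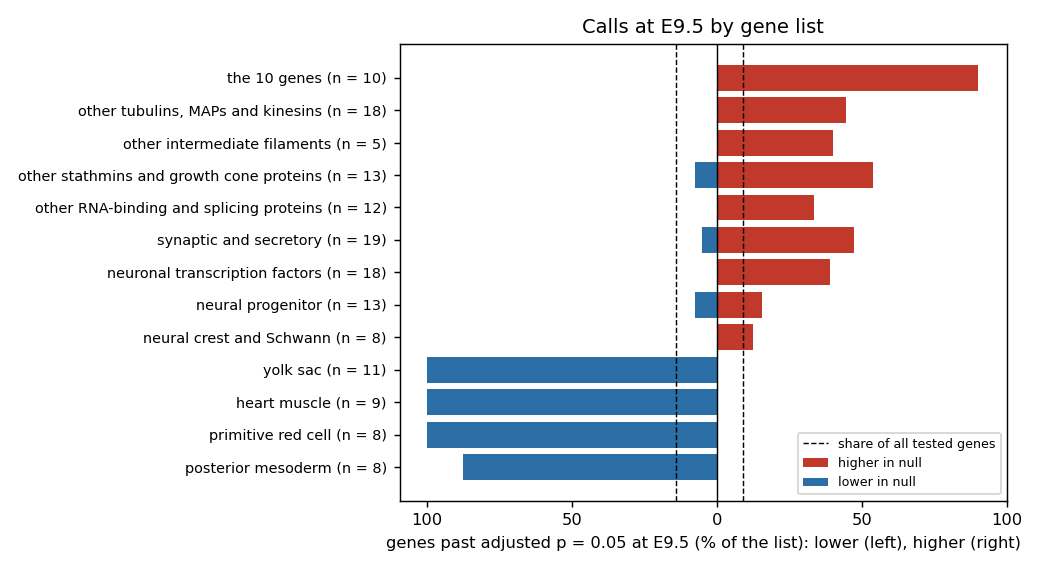
Share of each gene list (rows, with the number tested) that was called higher (red, to the right) or lower (blue, to the left) in Nxn-null RNA at E9.5, as a percentage of the list (x axis). The dashed lines mark the shares over all genes, 9.03% higher and 14.1% lower. The 10 genes and the 6 lists of other neuronal and related genes extend to the right, while the yolk sac, heart, red cell and posterior mesoderm lists extend to the left.

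The genes whose pattern came nearest to the mean of the 10 were Cnih2, Synpo, Chga, Rufy3 and Tagln3. Likeness was the Euclidean distance over the 8 channels between log2 values, each centred on its own mean. It was 0.13 for Cnih2, 0.14 for Synpo, 0.16 for Chga, 0.21 for Rufy3 and 0.22 for Tagln3. Among the 10 genes themselves, Tubb3 was nearest to their mean (0.22), followed by Stmn2 (0.27), and Mapt was farthest (1.72), since its rise with stage was the steepest. The log2 ratios of the 5 like genes lay between -0.08 (Rufy3) and 0.05 (Synpo) at E11.5 and between 0.25 (Rufy3) and 0.40 (Synpo) at E9.5, given as a description because they were chosen for this pattern.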

How the data were processed

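Per the labels' protocols, total RNA of embryos was amplified linearly from an oligo-dT T7 primer and labelled with Cy3 or Cy5. The deposited scanner files hold spot intensity and its local background in each channel, per the file headers, written by Agilent Feature Extraction (9.1.3.1 in the headers, 9.5.3.1 in the submitters' processing notes). They also hold a log10 ratio of the processed channels, used as an alternative. The deposited value table runs as null over wild type, on the log10 scale. Where the scanner log10 ratio was not 0, 99.993% to 100% of 28702 to 32221 values per array were equal to it within 1e-04. Over all 40929 probes 70.1% to 78.7% were equal, because the table holds other values where the scanner ratio is 0. Its column medians were -0.0347 and 0.021 for E11.5 arrays 1 and 2, and -0.0136 and 0.0408 for E9.5 arrays 1 and 2.

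Mean intensities were corrected by normexp (offset 50) and normalised by loess within arrays, and single channels by Aquantile between arrays, with limma (version 3.58.1) in R (version 4.3.3). Tables and figures used Python 3.11.15, pandas 2.3.3 and matplotlib 3.10.9. Spots of a probe were averaged, and 293 probes with outlier marks were left out. Symbols were updated through a RefSeq table (GRCm38.p6): 22951 probes matched by accession, 6659 by symbol and 3109 by older symbol, and 8455 stayed as the files name them. The files give no genome build. Ratios at each stage and their difference were fitted on all 4 arrays with a dye term (1 residual degree of freedom, 18 prior). The shared effect used the 2 stage averages, and each stage change the 2 dye-matched single-channel differences. P-values were adjusted by Benjamini-Hochberg over all tested probes at 0.05. The fits were tested on simulated ratios and stage differences, and the steps before them were not. All arrays were on 1 slide with 1 scan time. Arrays were numbered in accession order, and the numbers pair nothing. With 2 arrays a stage, precision is limited by their number.

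The 10 genes and all lists were chosen with earlier results of these data known. All probes of the 10 genes are reported. From each other list the text names at most the 3 called genes with the largest absolute log2 ratio at each comparison, plus Nxn and 3 sex-linked genes as checks and the 5 genes most like the 10. The values of 1 gene that this rule names are not reported here. Alternatives varied the offset, the filter on dim probes, the probes in the fit, the moderation, the normalisation, the dye term and the arrays used.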

Additional observations from a re-analysis of the deposited data

Results flagged for a closer look

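For 9 of the 10 genes the null over wild type ratio differed between the stages by a test of the difference itself (limma on all 4 arrays, adjusted p under 0.05). Sex and genotype cannot be told apart in this difference. The log2 ratio at E11.5 minus that at E9.5 was -0.71 for Mapt, -0.53 for Stmn3, -0.50 for Stmn2 and -0.48 for Tubb3. It was -0.43 for Dcx, -0.38 for Nefm, -0.36 for Nefl, -0.30 for Elavl3 and -0.28 for Gap43. Mapt was the gene called in opposite directions, at -0.40 at E11.5 and 0.31 at E9.5. These values are of the brightest probes, and the other tested probes of Nefl and Dcx did not pass for the difference. No difference passed when any 1 of the 4 arrays was left out.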

How the results depend on the processing

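The alternatives were median centring in place of loess, the Feature Extraction log ratio, a fit with no dye term, offset 10, 2 other filters, 1 probe per gene, trend and robust moderation, other scalings of the channels, and leaving out each array. At E9.5 the 9 higher genes became 4 under median centring, 2 with the Feature Extraction log ratio, 3 with no dye term and 0 to 1 without an array, and the median ratio was 0.45 under median centring and 0.39 to 0.48 without an array. No gene of the 10 turned negative at E9.5 in any of these. The 1 lower gene at E11.5 became 0 under median centring, with the Feature Extraction log ratio, with no dye term and without any array, and the median was 0.19 under median centring and -0.027 to 0.049 without an array. Median centring moved the E11.5 median of all genes to 0.098, against 0.0072 with loess, and turned the E11.5 ratios of Dcx (0.11), Elavl3 (0.13) and Elavl4 (0.17) positive, the stage difference of Elavl4 (0.057) positive and the shared ratio of Mapt (0.071) positive. Without an array the E11.5 ratios ranged over -0.044 to 0.13 for Nefl, -0.032 to 0.14 for Stmn2, -0.13 to 0.026 for Dcx, -0.20 to 0.16 for Elavl3, -0.086 to 0.068 for Elavl4 and -0.068 to 0.14 for Gap43. The stage difference of Elavl4 then ranged over -0.14 to 0.016, and the shared ratio over -0.13 to 0.043 for Mapt and -0.017 to 0.061 for Elavl4. The 9 negative stage differences became 6 with offset 10 and with no filter, without Nefl, Gap43 and Elavl3, 5 under trend and robust moderation and 0 under median centring, with the Feature Extraction log ratio or without any array. Their median was -0.31 under median centring, -0.45 with the log ratio and -0.51 to -0.37 without an array. The median rise with stage in null RNA was 0.90 under 75th percentile scaling and 0.92 to 0.997 without an array. In wild-type RNA it was 1.26 under 75th percentile scaling, with 0 genes called, beside a median of 0.20 over all genes. Of all calls at E9.5, 39.1% were higher with loess and 22.9% under median centring, at E11.5 39.5% and 54.3%, and for the stage difference 62.7% and 80.6%. Of stage calls in null RNA, 51.5% were higher with Aquantile and 75.2% under 75th percentile scaling. The causes were not tested, except that fits without an array have fewer arrays and no dye term. A slide or scan block was not run, because all arrays share 1 slide and 1 scan time. No paired analysis was possible because the labels give no replicate numbers, beyond the pairing of genotypes within an array and of dyes across stages that the fits already use. The 4 dim probes never stood well above background and have only a bound.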
